A study of Piriqueta cistoides subsp. caroliniana with 18 samples.

Results

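MIPS is the gene of myo-inositol-3-phosphate synthase, and all 3 probes whose only gene symbol is MIPS were taken, of 9600 probes on the array, which name 342 genes by a single symbol. They are Gm00068, Gm03671 and Gm05530. All 3 had a value on each of the 18 arrays and so passed the filter of 14 arrays that left 7880 tested probes. The clones and symbols are those of soybean, whereas the RNA came from leaves of Piriqueta cistoides subsp. caroliniana, a perennial herb. A signal thus comes from hybridisation between species, and copies of MIPS in Piriqueta that resemble each other cannot be told apart.

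The enzyme turns glucose 6-phosphate into myo-inositol 3-phosphate, the committed step of inositol synthesis in plants. A phosphatase then releases free myo-inositol. Inositol feeds phosphoinositide signalling, phytate, the galactinol and raffinose sugars, and methylated inositols such as pinitol that build up as osmolytes in many plants short of water. It can also be oxidised towards cell wall sugars. In the ice plant Mesembryanthemum crystallinum, salt stress is known to raise the transcript of this enzyme.

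The study compared 3 morphotypes, caroliniana, viridis and their hybrid, each kept well-watered or taken through 4 drought cycles in 36 days. This gives 6 groups of 3 plants, all grown from cuttings in sand in a greenhouse near 35 °C by day and 27 °C by night. Each plant was hybridised on 2 arrays, once with each dye, and the 18 arrays close into 1 loop. The labels do not say which cuttings came from the same parent plant, so the p-values speak for these plants only. They rest on the spread of a probe's arrays around the fit. The ratio of plant to array variance was shared by all probes, so no probe's own spread between plants was estimated. The values are ratios of 2 plants and hold no level of a transcript, so leaf markers could not be used to check the tissue, and probes are compared by their differences only. Array medians lay between -0.045 and 0.067. The number of arrays limits the precision. In bulk leaf RNA, a change in the share of a cell type and a change of transcript per cell cannot be told apart.

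A positive value here means more signal in drought, or in the group named first, if the deposited log ratio is Cy5 over Cy3. The files settle neither this reading nor the base of the logarithm. The other reading would turn the sign of every log-ratio value and difference below, though not of the correlations. Which treatment or group was higher thus holds under this reading alone. For the same reason a fold is given for both bases where one is given.

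A drought effect on the positive side was called in the hybrid with all 3 MIPS probes, in caroliniana with 1 and in viridis with none. Of all tested probes 1.75%, 0.698% and 0.673% were so called in these morphotypes. No difference in drought effect between the morphotypes passed the test. All 3 hybrid calls ended without hybrid well-watered plant 1. The caroliniana call ended without each of 16 of the 18 plants, and the effects there were 0.35 for Gm05530, 0.31 for Gm03671 and 0.29 for Gm00068. Averaged over the morphotypes, the drought effect was 0.28 ± 0.0536 (SE) for Gm05530, 0.31 ± 0.0712 for Gm03671 and 0.43 ± 0.129 for Gm00068. The first 2 of these passed the limma test with adjusted p = 0.00812 and 0.0286, whereas Gm00068 did not (adjusted p = 0.123). With 1 plant left out at a time, the call of Gm05530 held in 15 of 18 fits and that of Gm03671 in 8. Among all tested probes 1.94% were called for this comparison and 1.50% on the positive side. The median effect of all tested probes was -0.022. An effect of 0.28 is a 1.21-fold difference if the logarithm is to base 2 and a 1.32-fold difference if it is natural.

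The arrays that set drought against water within a morphotype show this most directly. All of them paired a plant numbered 1 with a plant numbered 2, so the remaining plant of each group was not compared in this way. Each probe's mean over the arrays, its dye term, was removed first. In the hybrid, the pair of plants 1 (drought) and 2 (well-watered) gave drought minus well-watered values of 0.41 for Gm05530, 0.48 for Gm03671 and 0.53 for Gm00068. The pair of plants 2 (drought) and 1 (well-watered) gave 0.34, 0.67 and 1.37 in the same order of probes. Both hybrid arrays were thus positive with every probe.

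In caroliniana the array of drought plant 1 and well-watered plant 2 gave 0.42 for Gm05530, 0.46 for Gm03671 and 0.32 for Gm00068. That of drought plant 2 and well-watered plant 1 gave 0.47, 0.38 and 0.61. Both caroliniana arrays were positive with every probe. In viridis the array of drought plant 1 and well-watered plant 2 gave 0.037, -0.047 and 0.26. That of drought plant 2 and well-watered plant 1 gave -0.039, -0.066 and -0.42, so neither viridis array lay far from 0 for Gm05530 and Gm03671. Over the 6 arrays of this kind, 5 were positive for Gm05530, 4 for Gm03671 and 5 for Gm00068. With the dye term left in, 5 of 6 were positive for each of the probes.

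**Figure D1:**
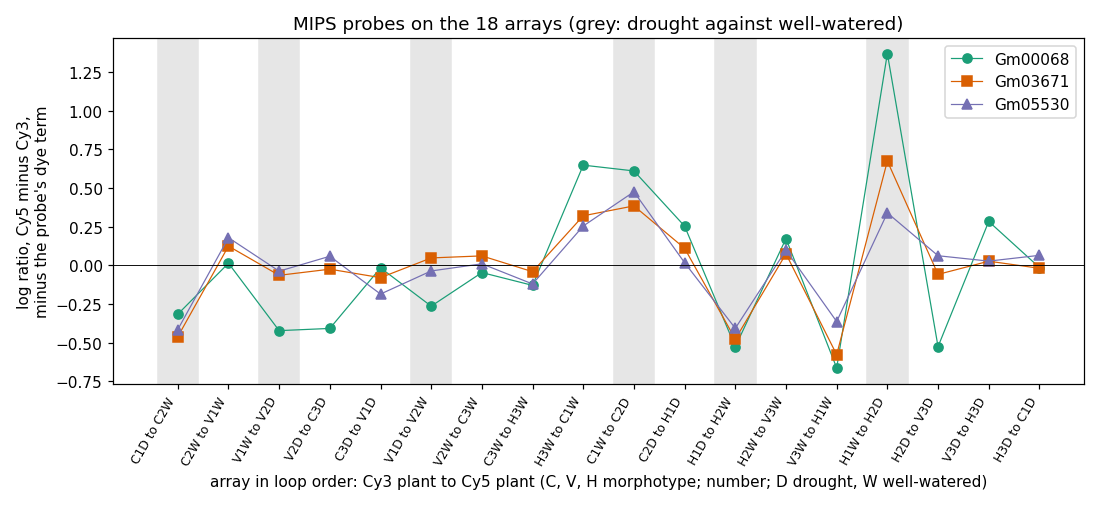
Log ratio of Cy5 over Cy3 after removal of the probe's dye term, for the 3 MIPS probes on the 18 arrays in loop order; the x axis names the plant in each dye, and grey bands mark the 6 arrays that set drought against water within a morphotype. The hybrid array of well-watered plant 1 and drought plant 2 stands highest for Gm00068 (1.37) and Gm03671 (0.67), the caroliniana array of well-watered plant 1 and drought plant 2 stands highest for Gm05530 (0.47), and the viridis bands lie near 0 for Gm03671 and Gm05530.

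The arrays that paired different morphotypes under the same treatment had a narrower range under drought with each probe, but not a smaller typical size with each. The median absolute value was 0.043 under drought and 0.098 in water for Gm03671, and 0.059 and 0.15 for Gm05530. For Gm00068 it was larger under drought, at 0.27 against 0.15. Among the 6 drought arrays, Gm03671 ran from -0.081 to 0.11 and Gm05530 from -0.19 to 0.064. Among the 6 well-watered arrays, Gm03671 ran from -0.58 to 0.32 and Gm05530 from -0.36 to 0.25. Both ends of the well-watered ranges came from arrays with a hybrid plant. The lowest was the array of viridis plant 3 and hybrid plant 1 and the highest that of hybrid plant 3 and caroliniana plant 1, and in both the hybrid plant had the lower value. For Gm00068 the drought arrays spanned -0.53 to 0.28 and the well-watered ones -0.66 to 0.65. Its lowest drought value came from the array of hybrid drought plant 2 and viridis drought plant 3, which the submitters marked as BAD in its title. Without that array the hybrid effect of Gm00068 was 0.91.

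The loop was also solved for a value of each plant, centred on 0 over the 18 plants. For Gm05530, hybrid drought plants 1 to 3 had 0.41, 0.076 and 0.16, and hybrid well-watered plants 1 to 3 had -0.26, 0.0053 and -0.33. The drought plants all lay above the well-watered ones, with well-watered plant 2 the closest to them. Caroliniana drought plants 1 to 3 had 0.23, 0.40 and 0.0069, against -0.077, -0.19 and -0.21 for the well-watered ones, and again the groups did not overlap. Viridis drought plants 1 to 3 had -0.18, -0.051 and 0.14, and the well-watered ones -0.012, -0.22 and 0.10. The viridis groups overlapped throughout.

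For Gm03671, hybrid drought plants 1 to 3 had 0.57, 0.26 and 0.22 and well-watered plants -0.41, 0.091 and -0.24, without overlap. Caroliniana drought plants had 0.20, 0.46 and -0.23 and well-watered plants 0.077, -0.26 and -0.20, so that drought plant 3 lay among the well-watered plants. Viridis drought plants had -0.31, -0.20 and 0.20 and well-watered plants -0.14, -0.26 and 0.16, which overlapped.

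For Gm00068, hybrid drought plants 1 to 3 had 0.56, 0.91 and 0.66 and well-watered plants -0.46, 0.032 and -0.95, the widest gap between the groups of any probe (0.53). Caroliniana drought plants had 0.65, 0.31 and -0.49 and well-watered plants -0.30, 0.33 and -0.82. Viridis drought plants had -0.51, -0.079 and 0.38 and well-watered plants 0.34, -0.77 and 0.20. Both parental morphotypes overlapped between treatments with this probe.

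In the hybrid, drought plants lay wholly above well-watered plants with 3 of 3 MIPS probes, against 5.16% of the 5371 probes with values on all arrays. In caroliniana this held for 1 of 3, against 2.61%, and in viridis for 0 of 3, against 3.54%. Of 9 drought plants, 7 exceeded the mean of the matching well-watered group for Gm05530 and 6 each did so for Gm03671 and Gm00068. Neighbours in the loop share an array. For Gm03671 the run of plants from viridis drought plant 2 through caroliniana drought plant 3, viridis drought plant 1, viridis well-watered plant 2 and caroliniana well-watered plant 3 lay between -0.31 and -0.20 whatever the treatment.

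**Figure D2:**
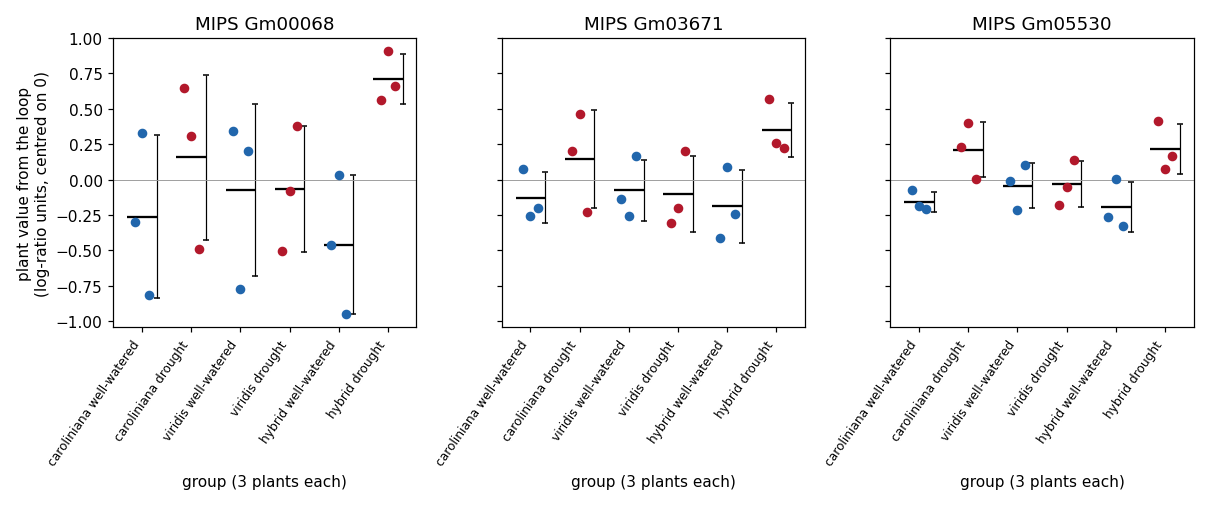
Plant values of the 3 MIPS probes in log-ratio units, centred on 0 over 18 plants, by group (blue well-watered, red drought; 3 plants each, line at the mean, bar 1 SD either way). The hybrid drought plants lie above the hybrid well-watered plants in each panel, while the viridis groups overlap in each.

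Within the hybrid, the fitted drought effect was 0.92 ± 0.185 for Gm00068, 0.54 ± 0.103 for Gm03671 and 0.40 ± 0.0773 for Gm05530. All 3 passed the limma test, with adjusted p = 0.0118, 0.00656 and 0.00846, where 2.07% of tested probes were called and 1.75% on the positive side. These effects are 1.89-fold, 1.46-fold and 1.32-fold on base 2, and 2.50-fold, 1.72-fold and 1.49-fold on the natural base. Without hybrid well-watered plant 1 none of the 3 calls remained, with effects of 0.69, 0.45 and 0.41 (adjusted p = 0.364, 0.140 and 0.0872). Without hybrid drought plant 2 the calls of Gm00068 (0.70) and Gm03671 (0.51) ended, and without hybrid drought plant 1 that of Gm05530 (0.35). Without hybrid well-watered plant 2 all 3 were called, with 1.14 for Gm00068, 0.61 for Gm03671 and 0.42 for Gm05530. That plant moved the whole comparison, since 163 of all tested probes were called with it and 1149 without it.

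Within caroliniana the effect was 0.35 ± 0.0764 for Gm05530, 0.31 ± 0.102 for Gm03671 and 0.29 ± 0.183 for Gm00068. Only Gm05530 was called (limma, adjusted p = 0.0471), in a comparison with 0.799% of probes called and 0.698% on the positive side. The adjusted p was 0.483 for Gm03671 and 0.999 for Gm00068, with 95% intervals of 0.094 to 0.53 and -0.095 to 0.68. The call of Gm05530 ended without each of 16 of the 18 plants, the exceptions being hybrid well-watered plant 2 and viridis well-watered plant 3. Over these 18 fits the effect ran from 0.30 to 0.39.

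Within viridis the effect was 0.078 ± 0.0766 for Gm05530, 0.077 ± 0.102 for Gm03671 and 0.081 ± 0.184 for Gm00068. None was called (limma, adjusted p = 0.997 for each), where 0.711% of probes were called and 0.673% on the positive side. The 95% intervals ran from -0.085 to 0.24, from -0.14 to 0.29 and from -0.31 to 0.47. They include 0 and, for Gm00068, also the caroliniana value of 0.29. The plain means of the plant values gave less than the fit, with -0.10 in drought and -0.077 in well-watered plants for Gm03671 and -0.031 and -0.042 for Gm05530. For Gm00068 these means were -0.068 and -0.074. The fitted sign of Gm00068 turned without viridis well-watered plant 2 (-0.026) or caroliniana drought plant 3 (-0.0011), and its value rose to 0.34 without viridis well-watered plant 1.

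Whether the morphotypes differ in their drought effect was tested directly. The hybrid minus viridis difference was 0.84 ± 0.228 for Gm00068, 0.47 ± 0.126 for Gm03671 and 0.32 ± 0.0949 for Gm05530, with 95% intervals of 0.35 to 1.32, 0.20 to 0.74 and 0.12 to 0.52. None passed over all tested probes (limma, adjusted p = 0.871 for each), and 0.00% of probes were called. By their unadjusted p of 0.00205, 0.00190 and 0.00391 they ranked 13, 12 and 26 of 7880. Only 305 probes had an unadjusted p under 0.05, a smaller share of the tested probes than 0.05 itself. The ranks are not independent, since the probes follow each other over the same arrays. Without hybrid well-watered plant 2, Gm00068 (1.06, adjusted p = 0.0316) and Gm03671 (0.57, adjusted p = 0.0302) were called, but Gm05530 was not. The share of all probes called for this difference in that fit was not counted. Leaving out that plant also raised the count of all probes called for drought in the hybrid from 163 to 1149. With weighted independent arrays, the hybrid minus viridis difference was called for Gm00068 (0.81, limma, adjusted p = 0.0479). For Gm03671 it was not (0.49, adjusted p = 0.0507). With viridis drought plant 3 dropped alongside that hybrid plant, Gm03671 was called (0.64, adjusted p = 0.0457). Gm00068 was not (1.03, adjusted p = 0.0859). Gm05530 was called in neither fit, and the share of all probes called was not counted there either.

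The caroliniana minus viridis difference of drought effects was 0.28 ± 0.0952 for Gm05530, 0.23 ± 0.127 for Gm03671 and 0.21 ± 0.228 for Gm00068 (limma, adjusted p = 0.9995 for each). The hybrid minus caroliniana difference was 0.62 ± 0.229 for Gm00068, 0.24 ± 0.127 for Gm03671 and 0.045 ± 0.0955 for Gm05530 (adjusted p = 0.901, 0.901 and 0.950). The F test over all 3 morphotypes gave 7.29, 6.89 and 6.66 for Gm00068, Gm03671 and Gm05530, with adjusted p = 0.998 for each. It called 0.00% of all probes, of which 185 had an unadjusted p under 0.05, again a smaller share than 0.05.

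**Figure D3:**
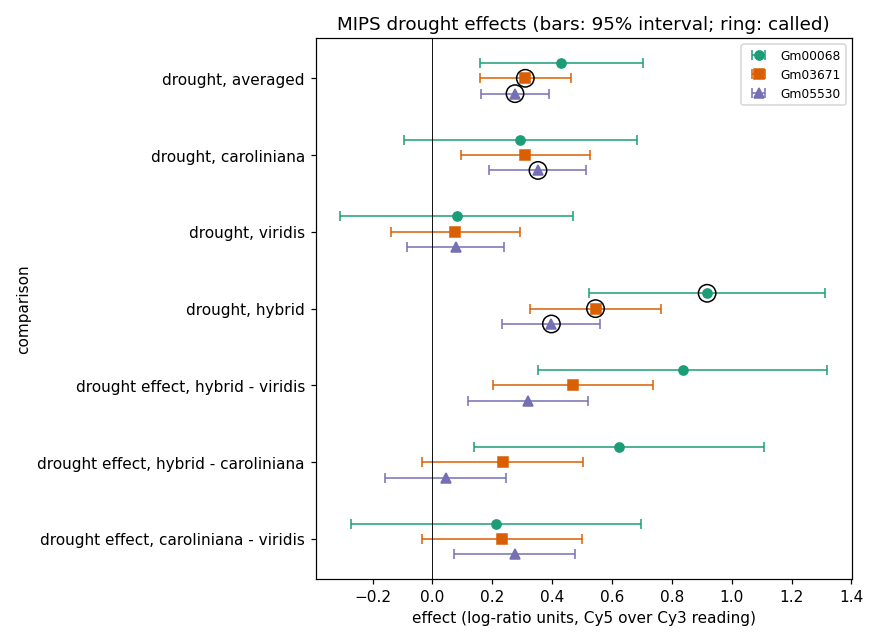
Drought effects of the 3 MIPS probes averaged and within each morphotype, and differences between those effects, in log-ratio units with 95% intervals; a ring marks an adjusted p under 0.05 over all tested probes. The hybrid effects (0.92, 0.54 and 0.40) and the viridis effects (0.081, 0.077 and 0.078) lie furthest apart, and no difference between morphotypes carries a ring.

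The fitted levels of the 6 groups stood in nearly the same order with each probe. With Gm00068 and Gm03671 it ran, from high to low, hybrid drought, caroliniana drought, viridis drought, viridis well-watered, caroliniana well-watered and hybrid well-watered. For Gm03671 these levels were 0.21, 0.17, 0.077, 0.00025, -0.14 and -0.33 around the mean of the groups, and for Gm00068 they were 0.42, 0.16, 0.073, -0.0081, -0.14 and -0.50. With Gm05530 the first 2 changed places, at 0.22 for caroliniana drought and 0.13 for hybrid drought, followed by 0.070, -0.0074, -0.14 and -0.27. No neighbours in this order differed past the threshold. The plain means of the plant values kept the order of Gm00068 but not of the other probes. For Gm03671 viridis well-watered (-0.077) stood above viridis drought (-0.10). For Gm05530 hybrid drought (0.22) stood above caroliniana drought (0.21). The hybrid thus held the lowest level in water and the first or second level in drought, and both viridis groups stood in the middle of the order. If the ratio is Cy3 over Cy5 the order is turned, with the hybrid highest in water and lowest or next to lowest in drought.

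Of the 15 pairs of groups, 3 were called for Gm05530, 2 for Gm03671 and 1 for Gm00068. Beside the drought effects given above, the further call was caroliniana drought minus hybrid well-watered. It was 0.49 ± 0.0834 for Gm05530 and 0.50 ± 0.111 for Gm03671 (limma, adjusted p = 0.00509 and 0.0382), in a comparison with 0.926% of probes called and 0.901% on the positive side. The call of Gm05530 ended without caroliniana well-watered plant 1 (0.41), caroliniana drought plant 2 (0.47) or hybrid well-watered plant 3 (0.45), and that of Gm03671 without each of 13 of the 18 plants, with values of 0.41 to 0.55 in those fits. The call of Gm03671 also ended with the array marked BAD left out (adjusted p = 0.0604), without a dye term (0.0854), with the plant number as a block (0.0721) and with a variance ratio of 1 (0.142).

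The other comparisons of a drought group with a well-watered group of another morphotype called no MIPS probe. Hybrid drought minus viridis well-watered was 0.43 ± 0.199 for Gm00068, 0.21 ± 0.110 for Gm03671 and 0.13 ± 0.0828 for Gm05530 (limma, adjusted p = 0.260, 0.302 and 0.380), where 1.57% of probes were called and 1.35% on the positive side. Hybrid drought minus caroliniana well-watered was 0.56 ± 0.201, 0.35 ± 0.112 and 0.26 ± 0.0840 for Gm00068, Gm03671 and Gm05530, with 0.952% called and 0.825% on the positive side. Viridis drought minus hybrid well-watered was 0.57 ± 0.204, 0.41 ± 0.113 and 0.34 ± 0.0851 in that order, with 0.799% and 0.711%. Viridis drought minus caroliniana well-watered was 0.21 for each probe (0.305% and 0.266%), and caroliniana drought minus viridis well-watered was 0.16, 0.17 and 0.22 (0.901% and 0.850%). All of these values were positive.

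In well-watered plants the hybrid lay below viridis by -0.26 ± 0.0744 for Gm05530, -0.33 ± 0.0988 for Gm03671 and -0.49 ± 0.178 for Gm00068, with 95% intervals of -0.42 to -0.11, -0.54 to -0.12 and -0.87 to -0.11. None passed over all probes (limma, adjusted p = 0.9996 for each), and 0.0127% of all tested probes were called. Against the mid-parent value, the mean of both parental morphotypes, the well-watered hybrid had -0.20 ± 0.0650, -0.26 ± 0.0864 and -0.43 ± 0.156 in the same order of probes (adjusted p = 0.9999 for each). Under drought the hybrid minus mid-parent value was -0.016 ± 0.0656, 0.089 ± 0.0872 and 0.30 ± 0.157 (adjusted p = 0.929, 0.665 and 0.507).

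Averaged over both treatments the parental morphotypes could not be distinguished. Caroliniana minus viridis was 0.0084 ± 0.0569 for Gm05530, -0.019 ± 0.0757 for Gm03671 and -0.024 ± 0.137 for Gm00068, with 95% intervals of -0.11 to 0.13, -0.18 to 0.14 and -0.31 to 0.27. Hybrid minus mid-parent was -0.11 ± 0.0507, -0.087 ± 0.0673 and -0.061 ± 0.122 in the same order (adjusted p = 0.812, 0.832 and 0.914). In both comparisons 0.00% of all probes were called by limma, while 296 and 478 had an unadjusted p under 0.05. The first count is a smaller share of the tested probes than 0.05, the second a larger one.

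**Figure D4:**
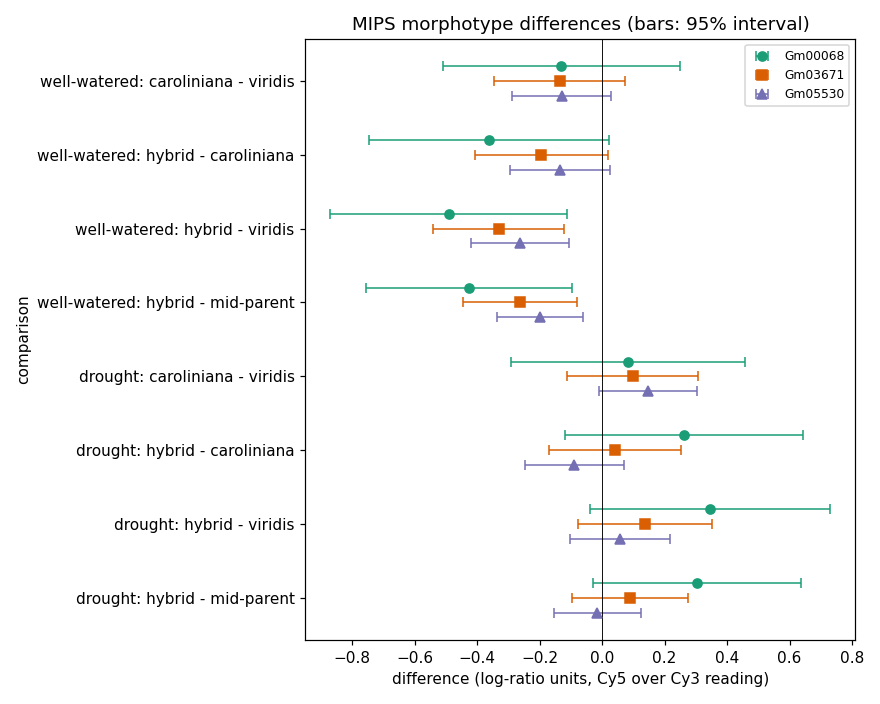
Differences between morphotypes for the 3 MIPS probes in well-watered plants and under drought, in log-ratio units with 95% intervals. The hybrid minus viridis and hybrid minus mid-parent intervals in water lie below 0 (-0.26, -0.33 and -0.49 against viridis), but no value passed over all tested probes.

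The probes did not give the same size of effect in the hybrid. On the same arrays, the hybrid drought effect of Gm00068 exceeded that of Gm05530 by 0.52 ± 0.182 (95% interval 0.12 to 0.92) and that of Gm03671 by 0.37 ± 0.161 (0.021 to 0.72). Gm03671 exceeded Gm05530 by 0.15 ± 0.0614 (0.014 to 0.28). The intervals starting at 0.021 and 0.014 only just leave out 0. In caroliniana these differences were -0.059 ± 0.180, -0.016 ± 0.160 and -0.043 ± 0.0607 and in viridis 0.0031 ± 0.180, 0.0042 ± 0.160 and -0.0010 ± 0.0609, and each interval included 0. A difference between probes of 1 gene can come from the clone as well as from the transcript, which was not tested.

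The precision of the probes differed as well. The residual SD was 0.099 for Gm05530, 0.148 for Gm03671 and 0.291 for Gm00068, against a median of 0.145 over all tested probes. Gm00068 had the largest averaged effect and missed the call. Its dye term was -0.44, lower than in all but 0.787% of tested probes, against -0.067 for Gm03671 and 0.015 for Gm05530. Each plant had each dye once, so leaving out the dye term could not move the hybrid effect of Gm00068 from 0.92. Its adjusted p without that term was 0.376 (limma).

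Over the 18 arrays the log ratios of Gm03671 and Gm05530 had a Pearson correlation of 0.92, the highest that either had with any of the 7879 other probes. Gm00068 correlated with Gm03671 at 0.87, rank 3 among its own partners, and with Gm05530 at 0.74, rank 52. The median correlation over all tested probes was -0.13 for Gm00068, -0.11 for Gm03671 and -0.091 for Gm05530. These are descriptions over arrays that share plants in pairs.

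The named probes of other genes most like Gm03671 and Gm05530 began with LOC778110 Gm07908, at 0.88 and 0.86. Its drought effect was 0.41 ± 0.103 averaged (limma, adjusted p = 0.0533) and was called in the hybrid at 0.64 (adjusted p = 0.0320). For Gm00068 the list began with CYP98A2 Gm08062, a cytochrome P450 of phenylpropanoid synthesis, at 0.77. PM23 Gm05758, a seed maturation protein, was in the list of each MIPS probe, at 0.76 for Gm00068, 0.71 for Gm03671 and 0.70 for Gm05530, and LOC732565 Gm05804 likewise, at 0.73, 0.80 and 0.74. CAT1, a catalase that removes hydrogen peroxide, stood in the list of Gm03671 at 0.74. CHLH Gm06139, a subunit of the magnesium chelatase of chlorophyll synthesis, stood in that of Gm05530 at 0.72, and so did LOC547820 Gm05863 at 0.69. The rest of the lists was 2 probes of LOC548073, Gm03466 at 0.76 and Gm05304 at 0.74 with Gm00068, the latter over 15 arrays. Gm03466 also stood at 0.75 with Gm03671. Of these genes, CYP98A2 (0.93, adjusted p = 0.000842), CHLH (0.77, adjusted p = 0.000124) and LOC547820 (0.47, adjusted p = 0.0266) were called for the averaged drought effect by limma. Among all tested probes 1.94% were called. PM23 (0.32), LOC732565 (0.38), CAT1 (0.37) and both LOC548073 probes (0.47 and 0.18) were not called. Within the hybrid, CYP98A2, CHLH and LOC548073 Gm03466 were called as well as LOC778110, and the other named probes were not. All were picked for following MIPS over the same arrays, so drought effects of the same sign are partly built into the choice. Among probes with no symbol, Gm05435 reached 0.89 with Gm00068 over 17 arrays and Gm06079 reached 0.91 with Gm05530.

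Other steps of inositol metabolism were hardly represented by a symbol. Of 35 symbols listed for inositol and raffinose synthesis, only MIPS matched, and of 10 for phosphoinositide signalling and 16 for other osmolytes none did. In the ascorbate list APX1, the ascorbate peroxidase, matched. For the averaged effect 0 of its 3 probes were called, at 0.28, 0.19 and -0.033, where 1.94% of all probes were called. Within the hybrid, where 2.07% of all probes were called, APX1 Gm05083 was called at 0.47 (limma, adjusted p = 0.0101), and the other 2 probes were not. A further 5 symbols for enzymes of sugar phosphates and UDP-sugars were added once so few symbols had matched, with results of these data already known. They are PGM, the phosphoglucomutase that forms glucose 6-phosphate, UGD1, the UDP-glucose dehydrogenase that makes UDP-glucuronate without inositol, USP1, GND and PMM. None of their 6 probes was called for drought, averaged or within a morphotype, where 1.94% of all probes were called averaged and 0.711% to 2.07% within a morphotype, so that 0 of 6 is near the background. The averaged effects were -0.018 ± 0.0525 for PGM and 0.025 ± 0.0584 and 0.00009 ± 0.0755 for the UGD1 probes Gm00324 and Gm15020. They were -0.039 ± 0.0481 for USP1, 0.14 ± 0.140 for GND and -0.043 ± 0.0448 for PMM, with a median of -0.0091.

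Of the leaf mesophyll list, CAB3, the chlorophyll a/b-binding protein, and PSAD, a photosystem I subunit, were measured with 6 probes. The 4 probes of CAB3 were called on the positive side for the averaged effect, against 1.50% of all probes. Neither PSAD probe was called, with 0.34 for Gm06019 (limma, adjusted p = 0.0629) and -0.088 for Gm10356. The median of the 6 probes was 1.84, and their part in the MIPS result was not tested. The CAB3 probes Gm06115 and Gm05985 had 1.71 and 1.59 in viridis (limma, adjusted p = 0.00152 and 0.00197) and 2.29 and 2.33 in the hybrid. The CAB3 probes Gm01099 and Gm05769 had 2.97 and 2.24 in viridis and were not called there (adjusted p = 0.0621 and 0.0783). Whether MIPS and CAB3 differ in how the morphotypes rank was not tested. Among seed proteins, which leaves should lack, 0 of 5 probes of GY1, GY2 and KTI3 were called for the averaged effect. With 1.94% of all probes called, 0 of 5 is near the background, and ratios cannot check the tissue. GY2 Gm10606 had -0.24 (limma, adjusted p = 0.0841).

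**Figure D5:**
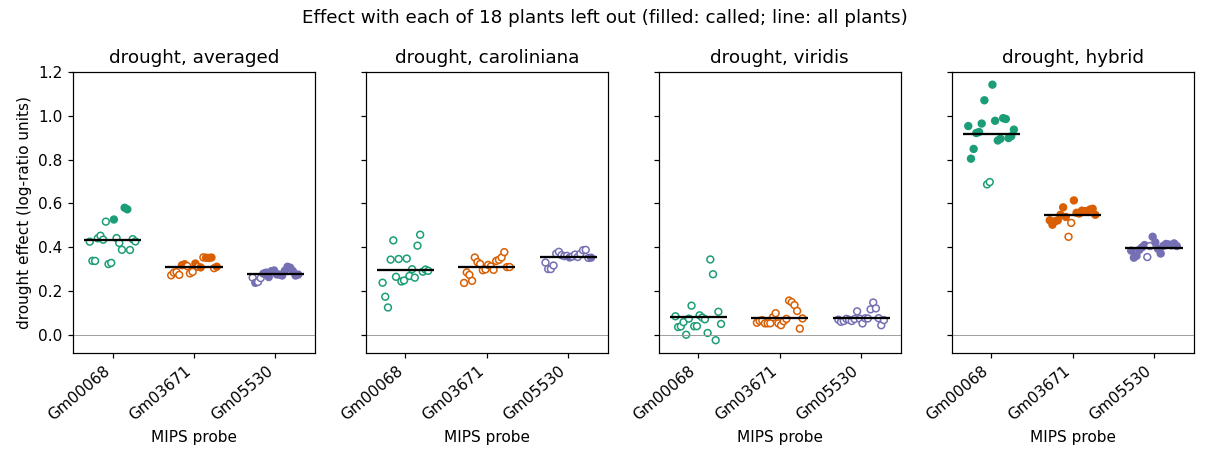
Drought effect of each MIPS probe in log-ratio units with each of the 18 plants left out in turn (circles, filled where the adjusted p is under 0.05) and with all plants (line), averaged and within each morphotype. In the hybrid the effects stay at 0.69 to 1.14 for Gm00068, 0.45 to 0.61 for Gm03671 and 0.35 to 0.45 for Gm05530, and in viridis no circle is filled.

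With 1 plant left out at a time, the averaged effect ran from 0.32 to 0.58 for Gm00068, from 0.27 to 0.35 for Gm03671 and from 0.24 to 0.31 for Gm05530. The call of Gm03671 was held without 8 of the 18 plants and that of Gm05530 without 15. Gm00068, not called with all plants, was called without hybrid well-watered plant 2 (0.53), viridis well-watered plant 1 (0.58) or viridis drought plant 2 (0.57). The call of Gm05530 ended without caroliniana drought plant 1 (0.26), drought plant 2 (0.24) or well-watered plant 2 (0.26).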

How the data were processed

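Leaf RNA of 18 plants was amplified and labelled with Cy3 and Cy5 for 18 arrays, per the labels' protocols. The deposited values are log ratios of the 2 channels of an array, handled here as log2, because the authors' base, channel order, background correction and normalisation are not given in the sources used here. They were read as Cy5 over Cy3, and the second plant code of a title was taken as the Cy5 plant, which matches the treatment and morphotype given for each channel on all 18 arrays.

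Each probe with values on at least 14 arrays (7880 of 9600) was given a model of 6 groups, a dye term and a random effect of plant, solved by generalised least squares. The variance ratio of plants to arrays was 0.25, by restricted maximum likelihood over all probes. Variances were moderated with limma 3.58.1 in R 4.3.3, except for the differences between MIPS probes, which were described by unmoderated intervals alone. Tests were two-sided with Benjamini-Hochberg adjustment over all tested probes of a comparison, and the threshold was 0.05. Plant values came from the loop solved without groups. The fit was tested on simulated data. Symbols came from a probe table in which 546 probes have 1 symbol, 6 have several and the others have none. For each MIPS probe, the 5 probes with 1 other symbol and the highest correlation were named. Members, lists and alternatives were chosen with earlier results of these data known. The alternatives were 11 other settings and each of the 18 plants left out in turn. Correlations between same-number drought and well-watered plants ran from -0.53 to 0.60 over 5371 probes. They cannot settle whether the numbers pair the plants, since the plant values share array error along the loop.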

Additional observations from a re-analysis of the deposited data

How the results depend on the processing

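Over 11 other settings and 18 plants left out in turn, 3 recomputed differences changed sign. The sign of Gm00068 in viridis turned without caroliniana drought plant 3 (-0.0011) or viridis well-watered plant 2 (-0.026), and the hybrid minus caroliniana drought effect of Gm05530 turned without hybrid drought plant 1 (-0.0087, and up to 0.087 with another plant left out). The averaged effect of Gm00068 was called with arrays scaled alike (0.57, adjusted p = 0.0138) and with weighted independent arrays (0.52, adjusted p = 0.0103). Without a dye term the calls of Gm00068 in the hybrid (0.92, adjusted p = 0.376), Gm03671 averaged (0.31, adjusted p = 0.0679) and Gm05530 in caroliniana (0.35, adjusted p = 0.0539) ended. With a variance ratio of 1 those of Gm03671 averaged (0.30, adjusted p = 0.0569) and Gm05530 in caroliniana (0.36, adjusted p = 0.130) ended. The caroliniana call of Gm05530 also ended with the array marked BAD left out (0.35, adjusted p = 0.0546), arrays centred on medians (0.37, adjusted p = 0.0590) and the array of hybrid well-watered plant 2 and viridis well-watered plant 3 turned (0.35, adjusted p = 0.132). The plant number as a replicate block gave it 0.35 (adjusted p = 0.0795) and also ended the call of Gm03671 for caroliniana drought minus hybrid well-watered (0.50, adjusted p = 0.0721), but no other call of a MIPS probe. Turning the array of hybrid well-watered plant 2 and viridis well-watered plant 3 moved the viridis effect of Gm00068 from 0.081 to 0.021. The cause of these changes was not tested.

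With 1 plant left out, the averaged effects ran from 0.32 to 0.58 for Gm00068, 0.27 to 0.35 for Gm03671 and 0.24 to 0.31 for Gm05530. The hybrid effects ran from 0.69 to 1.14, 0.45 to 0.61 and 0.35 to 0.45 in that order, the caroliniana effect of Gm05530 from 0.30 to 0.39 and the viridis effect of Gm00068 from -0.026 to 0.34. The count of all probes called for drought ran from 100 to 373 averaged (153 with all plants), 4 to 106 in caroliniana (63), 14 to 86 in viridis (56) and 65 to 1149 in the hybrid (163). Ratios give no signal over background, so whether a probe was dim is unknown here.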
